A study of Mus musculus with 6 samples.

Results

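The cells described here are intercalated duct cells of the untreated mouse submandibular gland, chosen by their own transcript counts from a droplet library of epithelial cells. A barcode was kept when 500 or more genes were seen and no more than 20% of its UMIs (unique molecular identifiers, each counting 1 captured RNA molecule) were mitochondrial. It then had to give Wfdc18 at least 1% of its UMIs and to hold at least 3 UMIs of Kit, Gfra3, Elf5, Esp4 and Gjb2 together. The saliva genes Mucl2, Pip, Prol1, Scgb1b27, Scgb2b27, Smgc and Car6 together had to stay under 30% of its UMIs. This gate found 548 cells among 4093 barcodes that passed the cell filter and 8277 barcodes in the matrix. The whole series held 16640 barcodes.

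The series has 3 libraries of wild-type female C57BL/6J mice with 10x Genomics 3' v3 chemistry, and each pooled 3 biological replicates marked by antibody hashtags. One library held Epcam+ cells of glands taken 90 days after 30 Gy of stereotactic irradiation of the left gland. The second held untreated Epcam+, Cd49f-high cells, a sort for the basal compartment. The third, from which the gate cells come, held all untreated Epcam+ cells. Dead cells and cells with Cd3, Cd16/32, Cd31 or Cd45 on their surface were sorted away in every library. The labels give all mice the same age, 8 to 10 weeks, without saying whether this was at irradiation or at collection. Each condition is a single pooled library, so library and treatment cannot be told apart.

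Intercalated ducts are the narrow first segments that drain the secretory acini of salivary glands and lead into larger ducts. The larger ducts include the ion-transporting striated ducts and, in rodents, the granular convoluted tubules. The low cuboidal cells of intercalated ducts are known for expressing the receptor tyrosine kinase Kit and the transcription factor Sox10. Lineage tracing in mice has shown that they can give rise to further duct cells. Granular tubule cells secrete kallikreins and Egf. Ionocytes are duct cells marked by Foxi1 and Ascl3 and rich in proton pumps.

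The label was checked against its markers, all of which belong to the gate and are therefore a description. Wfdc18, a whey-acidic-protein-domain protein, stood at 26584, 31376 and 28594 CPM (UMIs scaled to a common library total, after edgeR's TMM scaling) in gate cells of replicates 1, 2 and 3, against 657, 402 and 466 CPM in the other cells of the same replicates. Kit had 113, 91.5 and 105 CPM in gate cells and 34.1, 26.5 and 30.4 CPM in other cells. Gfra3, a co-receptor for the neurotrophic factor artemin, had 29.5, 40.5 and 27.9 CPM in gate cells and 0.967, 1.82 and 2.52 CPM in other cells. Every replicate of the gate cells lay above every replicate of the other cells for these 3 genes. Elf5, an ETS transcription factor of secretory epithelia, averaged 238 ± 22.8 CPM in gate cells and 61.2 ± 4.30 CPM in other cells (SD, n = 3 each). It set gate cells little apart from acinar gate cells, in which saliva genes make up at least 30% of UMIs. In the scaling of that comparison Elf5 had 103, 126 and 121 CPM in gate cells and 87.6, 96.1 and 105 CPM in acinar cells. The ranges overlapped, although gate cells were higher in each replicate. Esp4, a secreted exocrine-gland peptide, averaged 1014 ± 285 CPM in gate cells and 49.9 ± 17.1 CPM in other cells. Gjb2, the gap junction protein connexin 26, averaged 333 ± 43.5 CPM in gate cells and 21.9 ± 1.69 CPM in other cells.

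Shares of cells with a UMI were compared after thinning each cell to 3000 UMIs, which left out 39 of the 548 gate cells. Esp4 was seen in 81.9% of thinned gate cells (Wilson 95% interval 78.3% to 85.0%), and in 90.7% before thinning. Granular gate cells, in which at least 5% of UMIs come from Klk1b genes, had Esp4 in 0.743% of thinned cells and 2.93% before thinning. Gjb2 was seen in 72.9% of thinned gate cells (87.2% before thinning) and 1.12% of thinned granular cells. Kit is not a marker of gate cells alone: it was seen in 35.6% of thinned gate cells (63.1% before thinning), in 22.5% of thinned ionocyte gate cells (at least 2 UMIs of Ascl3 and Foxi1) and in 0.743% of thinned granular cells. Gfra3 reached 11.2% of thinned gate cells (22.6% before thinning) and 0 of 269 thinned granular cells, which allows a share of up to 1.12%. The intervals cover counting error only. Median depth was 6882 UMIs in gate cells, 21926 in granular cells and 11276.5 in ionocyte gate cells.

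Of the gate's 3 conditions, Wfdc18 removed the most cells: 526 barcodes failed on it alone. With the other 2 conditions met, 36 barcodes had fewer than 3 marker UMIs, 18 of them with exactly 2, against 15 members with exactly 3. The edge at 1% Wfdc18 was the most crowded: 91 of the 526 barcodes had 0.5% to 1% Wfdc18, against 71 members between 1% and 1.5%. Only 4 barcodes failed on the saliva genes alone, and 4 members lay between 20% and 30%.

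**Figure D1:**
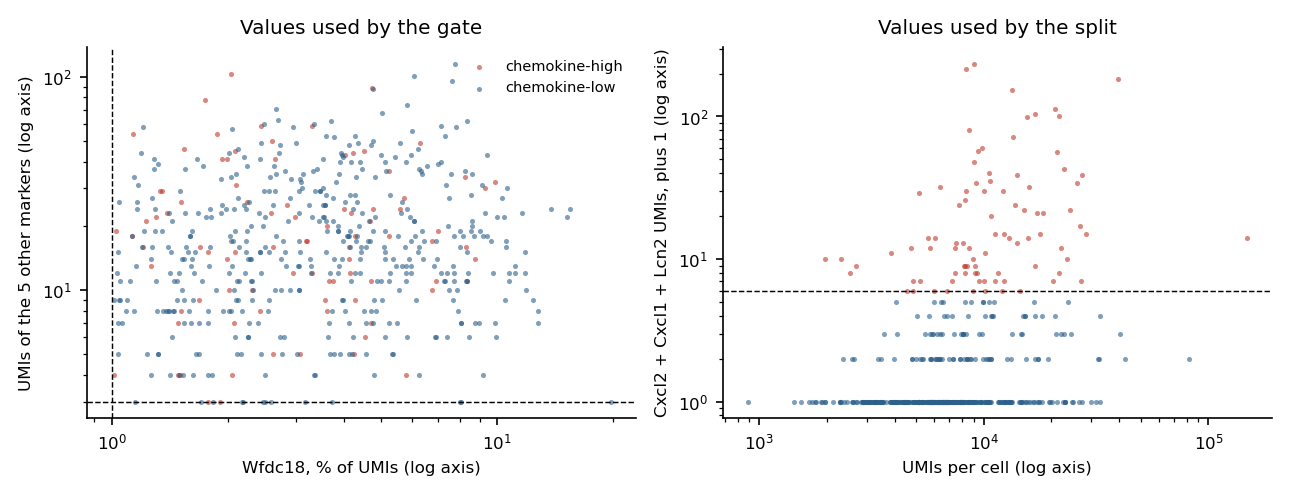
Left, Wfdc18 as a percentage of UMIs (x, log axis) against the UMIs of Kit, Gfra3, Elf5, Esp4 and Gjb2 together (y, log axis) for the 548 gate cells, with dashed lines at the gate's thresholds of 1% and 3 UMIs. Right, UMIs per cell (x, log axis) against the UMIs of Cxcl2, Cxcl1 and Lcn2 plus 1 (y, log axis), with the dashed line where 5 UMIs split 89 chemokine-high from 459 chemokine-low cells; each point is a cell.

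Gate cells held a median of 6882 UMIs (quartiles 5158 and 10176) and 2199.5 genes, with 6.49% mitochondrial UMIs. The other 3545 cells held a median of 14117 UMIs and 2727 genes, with 8.23% mitochondrial UMIs. Hashtags assigned 420 gate cells to a replicate (138, 126 and 156), called 28 doublets and left 100 without a call. The background of the second tag was high: the own tag made up a median of 80.9% of hashtag UMIs in replicate 2 but 53.8% and 57.7% in replicates 1 and 3. No member's barcode recurred in another library, although 8 barcodes were shared between the irradiated and the untreated whole epithelium and 15 between the basal sort and the untreated whole epithelium. The tests below use the 420 assigned cells, summed per replicate.

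The members were not uniform. All 5 markers were seen together in 73 cells, 4 of them in 211 cells, 3 in 179, 2 in 73 and a single one in 12. Smgc, a submandibular mucin-like protein of the gate's saliva set, held at least 10% of UMIs in 14 members, which carried 77.8% of all Smgc UMIs of the gate cells, while the remaining members had a median of 2. Those 14 members came from all replicates (2, 5 and 5 assigned cells). In sum they held 312 CPM of the acinar water channel Aqp5, against 25.6 CPM in the other 534 members, without TMM scaling. Their Wfdc18 median was 2.13% of UMIs, against 3.53% in the other 534.

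Transcripts of Dcpp1, Dcpp2 and Dcpp3, a cluster of demilune cell proteins with near-identical sequences, lay almost wholly in 2 members. In one, assigned to replicate 3, they made up 63777 of 81783 UMIs, or 78.0%. In the other, with no hashtag call, they made up 129202 of 148594 UMIs, or 86.9%. Both passed the gate with 3.74% and 1.27% Wfdc18. Other second programmes were rare: 9 members held at least 2 UMIs of Ascl3 and Foxi1, and 1 held at least 5% Klk1b. The hashtag doublets, which entered no test, carried 31740 CPM of Klk1 in sum, against 2712 CPM in the assigned cells, both without TMM scaling. Single cells weighed heavily in both sums. The member with at least 5% Klk1b was 1 of the doublets and had 223758 CPM of Klk1 over its 24674 UMIs. Of the Klk1 UMIs of the assigned cells, 1 cell held 45.8%. The saliva gene Mucl2 was seen in all thinned gate cells and in all thinned granular and ionocyte gate cells, at means of 50.6, 18.5 and 28.3 UMIs per 3000.

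Set against the other cells of the same 3 replicates, gate cells were higher in Slc9a3, Slc13a2, Ano1 and Car2, which move or supply ions and metabolites, in the enzymes Aox3 and Fads2 and in the ligands Il34 and Wnt5b. Most markers of granular duct cells and ionocytes were lower, as were all tested basal markers. Of 10773 genes tested with edgeR's quasi-likelihood test, replicates as a block, 1815 (16.8%) were higher and 1981 (18.4%) lower in gate cells at an adjusted p under 0.05. The 13 gate genes were not tested. With stricter hashtag shares, which left 21, 130 and 26 gate cells, 906 were higher and 1030 lower.

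Among transporters, Slc9a3, the sodium-proton exchanger NHE3, had 57.9, 64.9 and 64.0 CPM in gate cells, against 4.51, 2.59 and 4.56 CPM in other cells. The groups did not overlap, with a log2 fold change of 4.01 ± 0.18 (SE) and an adjusted p of 1.3e-08. Slc13a2, a sodium-coupled dicarboxylate carrier, had 61.3, 67.2 and 89.8 CPM in gate cells and 6.23, 2.78 and 5.16 CPM in other cells (log2 fold change 3.95 ± 0.19, adjusted p = 2.4e-08). Ano1, the calcium-activated chloride channel of fluid secretion, had 109.7, 123 and 108 CPM in gate cells and 9.78, 10.5 and 11.8 CPM in other cells (log2 fold change 3.41 ± 0.11). Car2, a cytosolic carbonic anhydrase that supplies bicarbonate and protons, had 1159.9, 938 and 1018 CPM in gate cells and 115, 71.3 and 83.3 CPM in other cells (log2 fold change 3.55 ± 0.10). In all 4 genes the lowest gate value lay several times above the highest value of the other cells.

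Among enzymes, Aox3, an aldehyde oxidase, averaged 126 ± 16.2 CPM in gate cells and 10.5 ± 1.77 CPM in other cells (SD, n = 3 each; log2 fold change 3.58 ± 0.10). Fads2, the delta-6 fatty acid desaturase, averaged 56.2 ± 9.57 CPM in gate cells and 4.21 ± 1.02 CPM in other cells (log2 fold change 3.74 ± 0.19). Bst1, an ADP-ribosyl cyclase at the cell surface, averaged 37.9 ± 8.38 CPM in gate cells and 2.30 ± 0.690 CPM in other cells (log2 fold change 4.05 ± 0.22). Pir, an iron-binding nuclear protein, averaged 111 ± 19.1 CPM in gate cells and 7.21 ± 1.60 CPM in other cells (log2 fold change 3.95 ± 0.16). Each was higher in all 3 replicates, with no overlap.

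Among secreted and signalling proteins, Il34, a ligand of the macrophage receptor Csf1r, had 51.8, 71.2 and 67.6 CPM in gate cells and 5.05, 4.80 and 5.28 CPM in other cells (log2 fold change 3.65 ± 0.15, adjusted p = 5.7e-09). Wnt5b, a Wnt ligand, had 46.2, 39.96 and 43.4 CPM in gate cells and 4.51, 3.93 and 2.76 CPM in other cells (log2 fold change 3.52 ± 0.18). Gpc6, a glypican that carries heparan sulphate at the cell surface, had 34.5, 55.6 and 42.3 CPM in gate cells and 1.93, 3.36 and 2.28 CPM in other cells (log2 fold change 4.12 ± 0.17). These values were tight across replicates. Esp18, an exocrine-gland secreted peptide, varied more: 169, 834 and 695 CPM in gate cells and 19.3, 76.1 and 53.7 CPM in other cells, with replicate 1 lowest in both (log2 fold change 3.45 ± 0.11). Haptoglobin (Hp), an acute-phase protein, was also lowest in replicate 1 of both, with 418, 713 and 821 CPM in gate cells and 31.3, 81.7 and 73.4 CPM in other cells (log2 fold change 3.44 ± 0.11). Esp18 was seen in 34.8% of thinned gate cells (43.1% before thinning) and 1.12% of thinned granular cells, and its counts may include reads of close relatives in the Esp family.

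**Figure D2:**
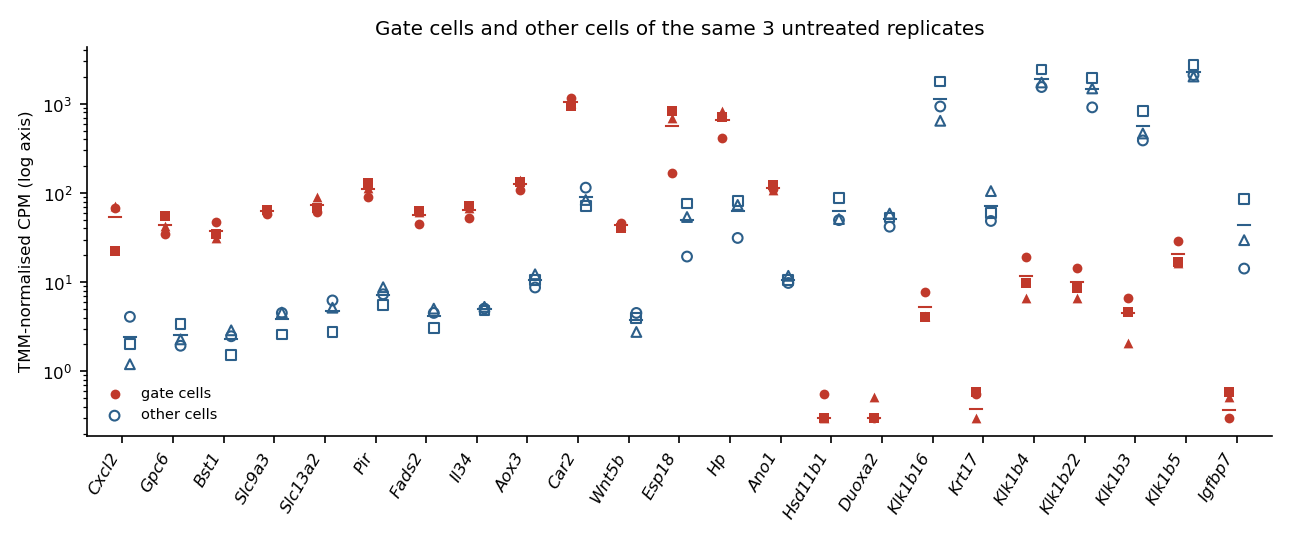
TMM-normalised CPM (y, log axis) of 23 named genes in gate cells (filled) and other cells (open) of untreated replicates 1 (circles), 2 (squares) and 3 (triangles), with lines at the means; values under 0.3 are drawn at 0.3. For the first 14 genes every filled point lies above every open one, and for the last 9 every filled point lies below.

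Dcpp3 also passed the naming rule, with 4.46, 4.63 and 16194 CPM in gate cells and 3.76, 4.22 and 4.08 CPM in other cells (log2 fold change 6.67 ± 2.38, adjusted p = 0.047), but a single cell of replicate 3 held 99.9% of its UMIs. Without replicate 3 its log2 fold change was 0.18 (adjusted p = 0.80). Dcpp1 rested on the same cell, which held 99.5% of its UMIs.

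The genes lowest in gate cells were those of granular ducts. Klk1b16, Klk1b4, Klk1b22, Klk1b3 and Klk1b5, kallikrein-type serine proteases, averaged 4.46 to 20.8 CPM in gate cells and 560 to 2284 CPM in other cells, and close sequence similarity within the family leaves the split of reads between them uncertain. All 17 tested granular duct markers of 18 listed were lower. Hsd11b1, which regenerates active glucocorticoid, had 1 UMI in gate cells and 1795 in other cells, a level 349 times higher in other cells (exact 95% counting interval 62.6 to 13803). Duoxa2, the maturation factor of dual oxidase 2, also had 1 UMI in gate cells, with 1432 in other cells. The ratio was 279 (49.9 to 11013).

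Basal genes were low in gate cells: Krt17, a basal keratin, had 2 UMIs in gate cells and 1946 in other cells, and all 4 tested basal markers of 6 were lower. In the assigned cells the summed level of the 6 basal markers was 5.47 to 13.5 CPM per replicate, against 77.9 to 183 CPM in other cells, both without TMM scaling. Igfbp7, an extracellular binding protein of insulin-like growth factors, had 2 UMIs in gate cells and 1276 in other cells. Markers of cells that the sort should remove were scarce. Without TMM scaling, the 10 immune markers summed to 3.15 to 5.47 CPM in gate cells and to 1.79 to 1.97 CPM in other cells, without overlap. Ptprc, S100a8, S100a9 and Cd79a were at 0 in gate cells. None of the 10 reached the count filter of the test. The 6 endothelial markers, also without TMM scaling, summed to 0.751 to 1.37 CPM in gate cells and 14.0 to 36.4 CPM in other cells. Cdh5 and Emcn were at 0 in gate cells. Of 9 ionocyte markers 8 were lower, among them Foxi1 with 2.23, 4.05 and 1.55 CPM in gate cells and 74.0, 74.8 and 82.7 CPM in other cells, and 1, the proton pump subunit Atp6v1b1, was higher. The only tested tuft cell marker, Dclk1, was higher in gate cells at 78.6, 60.2 and 87.7 CPM, against 7.84, 8.54 and 11.4 CPM in other cells (log2 fold change 3.02 ± 0.13). The defining tuft genes Trpm5 and Pou2f3 were at 0 in gate cells and in other cells alike, so they do not tell the groups apart.

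Gene groups differed in how uniformly they moved. The median log2 fold change over all genes tested was under 0.01 in size. All 23 genes of oxidative phosphorylation were lower, with a median of -0.79; Atp5b, the catalytic subunit of ATP synthase, averaged 675 ± 84.2 CPM in gate cells and 1325 ± 66.6 CPM in other cells. Of 24 genes of endoplasmic reticulum folding and secretion 18 were lower and none higher, with Hsp90b1, a chaperone of the secretory pathway, at 199 ± 10.8 CPM in gate cells and 406 ± 25.6 CPM in other cells. Of 23 tested genes of fluid secretion and transport 9 were higher and 12 lower. Beside Car2 and Ano1, the higher ones included P2ry2, Slc5a8, Car12 and Slc4a4, a bicarbonate cotransporter. The lower ones included all 3 subunits of the epithelial sodium channel, with Scnn1b at 15.04, 5.21 and 4.64 CPM in gate cells and 175, 149 and 152 CPM in other cells (log2 fold change -4.27 ± 0.20), and Fxyd2, a modulator of the sodium pump, at 753, 539 and 269.9 CPM in gate cells and 6512, 5901 and 5704 CPM in other cells.

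Of 16 tested proliferation genes 10 were higher in gate cells. Ccnd1, cyclin D1, which drives entry into S phase, was seen in 353 of 420 cells, at 355, 383 and 431 CPM in gate cells and 37.5, 39.0 and 45.1 CPM in other cells (log2 fold change 3.27 ± 0.08, adjusted p = 2.0e-10). The mitotic genes Birc5, Cdk1 and Top2a passed on 25 to 38 UMIs in 5 or 6 gate cells each, and Mki67 did not pass (adjusted p = 0.2). Among 25 tested duct and secretory transcription factors 10 were higher and 7 lower. Higher were Hey1, Tfap2c, Foxc1, Sox10, Ehf, Runx1, Grhl1, Tfap2b, Grhl2 and Hes1. Hey1, a Notch target, had 9.47, 22.6 and 14.97 CPM in gate cells and 1.83, 1.54 and 2.16 CPM in other cells (log2 fold change 3.07 ± 0.31). Sox10 was seen in 6.48% of thinned gate cells (14.6% before thinning), in 2.36% of thinned acinar gate cells (saliva genes at least 30% of UMIs, median depth 35119.5 UMIs) and in 0 of 269 thinned granular cells, which allows up to 1.12%. Saliva genes held a median of 81.9% of the UMIs of acinar gate cells, so thinning left few UMIs there for other genes. In the test against acinar gate cells Sox10 was lower, not higher, in intercalated duct gate cells.

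In signalling lists, 5 of 8 tested Notch pathway genes were higher and 1 was lower. The receptor Notch3 averaged 14.7 ± 5.21 CPM in gate cells and 3.26 ± 0.838 CPM in other cells, and the ligand Jag1 was lower, with 3 UMIs in gate cells and 94 in other cells. Of 15 tested Wnt pathway genes 7 were higher, among them Nkd2, an inhibitor of Wnt signalling, at 113, 89.2 and 94.96 CPM in gate cells and 11.9, 11.03 and 14.3 CPM in other cells (log2 fold change 3.00 ± 0.12), and 3 were lower. Of 14 tested genes of Kit and GDNF-family signalling 4 were higher and 7 lower. Nrtn, the ligand neurturin, averaged 107 ± 4.84 CPM in gate cells and 28.7 ± 4.32 CPM in other cells. Ret, the receptor kinase that GDNF-family co-receptors such as Gfra3 signal through, had 0 UMIs in gate cells and 137 in other cells, at least 8.89-fold lower in gate cells when 3 counts over the group are taken as the floor (5.06-fold without replicate 3). Of 10 tested milk-type and luminal progenitor genes 5 were higher and 4 lower.

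Compared with acinar gate cells (49, 60 and 48 cells of the same replicates), 1806 of 8897 tested genes (20.3%) were higher and 1786 (20.1%) lower in intercalated duct gate cells. Highest were Tm4sf1, Pir, Esp18, Mgst1, Cyba and Aox3. Mgst1, a microsomal glutathione transferase, had 212, 145 and 111 CPM in gate cells and 9.87, 6.16 and 1.22 CPM in acinar cells (log2 fold change 4.76 ± 0.20). Cyba, the p22phox subunit of NADPH oxidases, had 109, 125 and 122 CPM in gate cells and 3.70, 5.68 and 3.66 CPM in acinar cells (log2 fold change 4.73 ± 0.19). Tm4sf1, a membrane protein, had 62.0, 40.01 and 127 CPM in gate cells and 0, 2.84 and 0 CPM in acinar cells, where all UMIs came from replicate 2. Its log2 fold change was 5.96 ± 0.37, but 11.01 without replicate 2 and 4.90 without replicate 3. Aox3 had a log2 fold change of 4.47 ± 0.29, and 6.51 without replicate 2. Lowest were Mup5, Scgb2b26, Oit1, Wfdc12, Lpo and Pigr. Lpo, the antimicrobial enzyme lactoperoxidase, had 5.15, 4.29 and 2.28 CPM in gate cells and 295, 320.2 and 274 CPM in acinar cells (log2 fold change -6.24 ± 0.17). Pigr, which carries antibodies into saliva, had 3.79, 2.57 and 4.05 CPM in gate cells and 218, 207 and 188 CPM in acinar cells. Of 21 tested interferon and class I presentation genes 18 were higher, and of 19 tested immediate-early genes 17.

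Compared with granular gate cells (65, 84 and 68 cells), 1788 of 7951 tested genes (22.5%) were higher and 1802 (22.7%) lower. Ccn2, a matricellular protein, had 83.2, 61.9 and 85.0 CPM in gate cells and no UMI in granular cells, at least 95.2-fold higher in gate cells. BC006965 had 103, 125 and 88.6 CPM in gate cells and no UMI in granular cells, at least 129-fold higher. Slc13a2 and Pir had 1 UMI each in granular cells, and Esp18 and Cxcl1 had 8 each. Of the low genes, Ngfr, the p75 neurotrophin receptor, had 0 UMIs in gate cells and 60.3, 77.5 and 62.0 CPM in granular cells, at least 124-fold lower. Kcnj16, an inwardly rectifying potassium channel, had 0 UMIs in gate cells and 37.1, 58.8 and 42.8 CPM in granular cells, at least 86.8-fold lower. With any 1 replicate left out these 4 bounds ranged from 50.2 to 98.9. Egf, epidermal growth factor, had 2.19, 7.52 and 2.56 CPM in gate cells and 875, 2091 and 1355 CPM in granular cells (log2 fold change -8.46 ± 0.18). Hsd11b1 and the secretoglobin Scgb1c1 were also among the lowest, at 1 and 18 UMIs in gate cells. All 23 oxidative phosphorylation genes and 22 of 24 folding and secretion genes were lower.

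Compared with ionocyte gate cells (219, 204 and 149 cells), 1844 of 8890 tested genes (20.7%) were higher and 1795 (20.2%) lower. Fads2, Slc13a2, Rhoj, Slc9a3, Cxcl2 and Bst1 were the highest, with 2 to 7 UMIs each in ionocyte gate cells. Rhoj, a small GTPase, had 63.6, 54.8 and 57.4 CPM in gate cells and 0.711, 0.374 and 0.50 CPM in ionocyte gate cells (log2 fold change 6.62 ± 0.31). Among the lowest were Iapp, Tm6sf1, Dmrt2, Cpxm2 and Foxi2. Iapp, the hormone amylin, had 0 UMIs in gate cells and 15.99, 18.7 and 111 CPM in ionocyte gate cells, with replicate 3 highest, and was at least 58.1-fold lower, or at least 15.4-fold without replicate 3.

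Gate cells also differed among themselves in an inflammatory set. Cxcl1 and Cxcl2, neutrophil-attracting chemokines, and Lcn2, an iron-scavenging antimicrobial protein, were not part of the gate. Cxcl1 had 353, 235 and 441 CPM in gate cells and 33.3, 29.7 and 35.3 CPM in other cells (log2 fold change 3.35 ± 0.12, adjusted p = 1.6e-09). Cxcl2 had 68.5, 22.6 and 70.7 CPM in gate cells and 4.08, 2.01 and 1.20 CPM in other cells (log2 fold change 4.40 ± 0.28). Lcn2 had 11.7, 12.7 and 23.2 CPM in gate cells and 3.33, 10.7 and 6.72 CPM in other cells, with ranges that lay close together (log2 fold change 1.23 ± 0.29, adjusted p = 0.006). The signal sat in a minority of cells: 354 members held no UMI of the 3 genes, 12 held 4, 8 held 5 and the highest held 233. Cells with at least 5 such UMIs, called chemokine-high here, numbered 89, and the other 459 are called chemokine-low.

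Chemokine-high cells were deeper, with a median of 10038 UMIs and 4.72% mitochondrial UMIs, against 6564 UMIs and 6.85% in chemokine-low cells, and a fixed UMI threshold is passed more easily by deep cells. Of the assigned cells 27, 14 and 31 were chemokine-high and 111, 112 and 125 chemokine-low. The genes that made the split are a description: Cxcl1 stood at 1626, 2607 and 2178 CPM in chemokine-high cells, against 38.6, 23.3 and 41.6 CPM in chemokine-low cells, and Cxcl2 at 333, 248 and 345 CPM in chemokine-high cells, against 0.99, 2.59 and 8.33 CPM in chemokine-low cells. Among the gate genes, Wfdc18 stood at 32982 ± 4883 CPM in chemokine-high and 39241 ± 4981 CPM in chemokine-low cells (SD, n = 3 each) and Elf5 at 274 ± 45.1 CPM in chemokine-high and 327 ± 28.0 CPM in chemokine-low cells.

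The starts of the 2 chemokine genes are shown because both hold pairs of a sequence of the type bound by NF-kB, the transcription factor family that responds to inflammatory signals, and Lcn2 is shown beside them. Sequences are RefSeq's on GRCm38.p6, from 130 to 11 bases before the annotated start, 5′ to 3′ on the gene's strand, with matches on either strand in capitals to the motif GGG, any 2 bases (NN), then TTTCC.
Cxcl2 (chr5:90903769-90903888, + strand): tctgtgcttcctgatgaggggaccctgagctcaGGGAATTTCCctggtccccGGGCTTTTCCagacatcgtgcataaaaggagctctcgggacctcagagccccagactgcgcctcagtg
Cxcl1 (chr5:90891115-90891234, + strand): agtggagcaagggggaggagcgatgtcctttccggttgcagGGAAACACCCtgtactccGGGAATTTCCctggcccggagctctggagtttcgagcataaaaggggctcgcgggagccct
Lcn2 (chr2:32387750-32387869, - strand): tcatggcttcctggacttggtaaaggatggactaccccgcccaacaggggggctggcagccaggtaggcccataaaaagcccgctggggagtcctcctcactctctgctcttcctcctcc
The matches begin at -97 and -78 in Cxcl2 and at -89, on the opposite strand, and -71 in Cxcl1. No match to this motif was found in the 300 bases around the Lcn2 start, and other sequences of the NF-kB type were not searched for. Over 32851 promoters of 300 bases, 1.63% held at least 1 match and 10 held 2 or more. A match describes letters and does not show binding.

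Genes of the early stress and NF-kB responses were higher in chemokine-high cells. Of 6109 genes tested, 254 (4.16%) were higher and 19 (0.311%) lower in chemokine-high cells, replicates as a block. Of 19 tested immediate-early genes 18 were higher, with a median log2 fold change of 1.68, beside -0.0047 over all genes tested. Klf2, a transcription factor, had 194, 275 and 778 CPM in chemokine-high cells and 58.4, 31.9 and 72.2 CPM in chemokine-low cells (log2 fold change 2.81 ± 0.26, adjusted p = 1.9e-05). Ier3, an immediate-early gene that modulates survival, had 2798, 2483 and 4089 CPM in chemokine-high cells and 729, 668 and 476 CPM in chemokine-low cells (log2 fold change 2.31 ± 0.21). Klf6 and Egr1, both transcription factors, had log2 fold changes of 2.10 ± 0.16 and 2.00 ± 0.14. Dusp5, a phosphatase of nuclear ERK, averaged 110.4 ± 50.7 CPM in chemokine-high and 20.01 ± 9.41 CPM in chemokine-low cells (log2 fold change 2.48 ± 0.33, and 1.77 without replicate 3).

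Of 23 tested genes of NF-kB and cytokine response 15 were higher and none lower (median log2 fold change 1.14). Tnf, the cytokine tumour necrosis factor, had 65.6, 117 and 188 CPM in chemokine-high cells and 4.95, 15.5 and 22.2 CPM in chemokine-low cells (log2 fold change 3.13 ± 0.25, adjusted p = 6.8e-06). Icam1, an adhesion molecule for leukocytes, had 238, 447 and 555 CPM in chemokine-high cells and 31.7, 72.5 and 82.3 CPM in chemokine-low cells (log2 fold change 2.75 ± 0.16). Nfkbiz, a nuclear regulator of NF-kB, had 123, 138 and 205 CPM in chemokine-high cells and 33.7, 31.1 and 30.5 CPM in chemokine-low cells (log2 fold change 2.28 ± 0.22). Each gene was higher in all 3 replicates, and no values overlapped. Cxcl10, an interferon-induced chemokine, had a log2 fold change of 1.95 ± 0.29, and the inhibitor Nfkbia was also higher. Gbp2, an interferon-induced GTPase, averaged 63.1 ± 4.67 CPM in chemokine-high and 11.9 ± 1.95 CPM in chemokine-low cells (log2 fold change 2.41 ± 0.31).

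Beyond these lists, Plaur, the urokinase receptor, had 73.8, 34.4 and 105 CPM in chemokine-high cells and 26.7, 3.45 and 5.55 CPM in chemokine-low cells. Its log2 fold change of 2.60 ± 0.44 ranged between 1.79 without replicate 3 and 3.89 without replicate 1, and it was seen in 10 of 72 chemokine-high cells. Hmox1, haem oxygenase 1, averaged 190.1 ± 27.7 CPM in chemokine-high and 42.7 ± 15.4 CPM in chemokine-low cells (log2 fold change 2.17 ± 0.21). Cdkn1a, the cell cycle inhibitor p21, had 172, 103 and 67.3 CPM in chemokine-high cells and 29.7, 20.7 and 22.2 CPM in chemokine-low cells (log2 fold change 2.19 ± 0.25), and Fhl2, a LIM-domain adaptor, had a log2 fold change of 2.16 ± 0.29. Of 12 tested p53 targets 5 were higher: Gdf15, Cdkn1a, Plk2, Bbc3 and Btg2. Btg2 is also on the immediate-early list. Gdf15 was higher in only 2 replicates, and 1 cell held 52.2% of its UMIs in chemokine-high cells. Of 13 heat shock genes 8 were higher, and of 15 tested keratin, claudin and junction genes 5. The last were Cldn4, Krt8, Krt18, Krt23 and Cldn7, with Krt18, a simple-epithelium keratin, at 15615, 11872 and 12759 CPM in chemokine-high cells and 6850.0, 4979 and 5878 CPM in chemokine-low cells (log2 fold change 1.19 ± 0.12). None of 23 oxidative phosphorylation, 16 transport or 7 proliferation genes tested passed.

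The few lower genes included G0s2, an inhibitor of fat mobilisation, with 68.3, 96.3 and 207 CPM in chemokine-high cells and 146, 293 and 452 CPM in chemokine-low cells (log2 fold change -1.22 ± 0.17); it was lower in each replicate, although the ranges overlapped. Clec2d, a C-type lectin, had 175, 268 and 293 CPM in chemokine-high cells and 494, 466 and 551 CPM in chemokine-low cells (log2 fold change -1.08 ± 0.17, adjusted p = 0.0011). Klk1 had 1973, 859.8 and 907 CPM in chemokine-high cells and 6171, 1645 and 1571 CPM in chemokine-low cells (log2 fold change -1.14 ± 0.17). One cell held 38.7% of the Klk1 UMIs of the chemokine-high cells and one held 51.3% of those of the chemokine-low cells. Without the cells that Scrublet called doublets the log2 fold change of Klk1 was -0.30 (adjusted p = 0.57), and its adjusted p was 0.11 without the replicate block and 0.066 with stricter hashtag shares. Hook3, Lars2, Tm2d3 and Fam181b had log2 fold changes of -0.95 to -1.22. Without replicate 1, G0s2 stayed past the threshold and Hook3, Klk1, Clec2d, Lars2, Tm2d3 and Fam181b did not, with adjusted p of 0.065 for Clec2d to 0.49 for Hook3; only 3 genes in all were then lower and 133 higher.

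**Figure D3:**
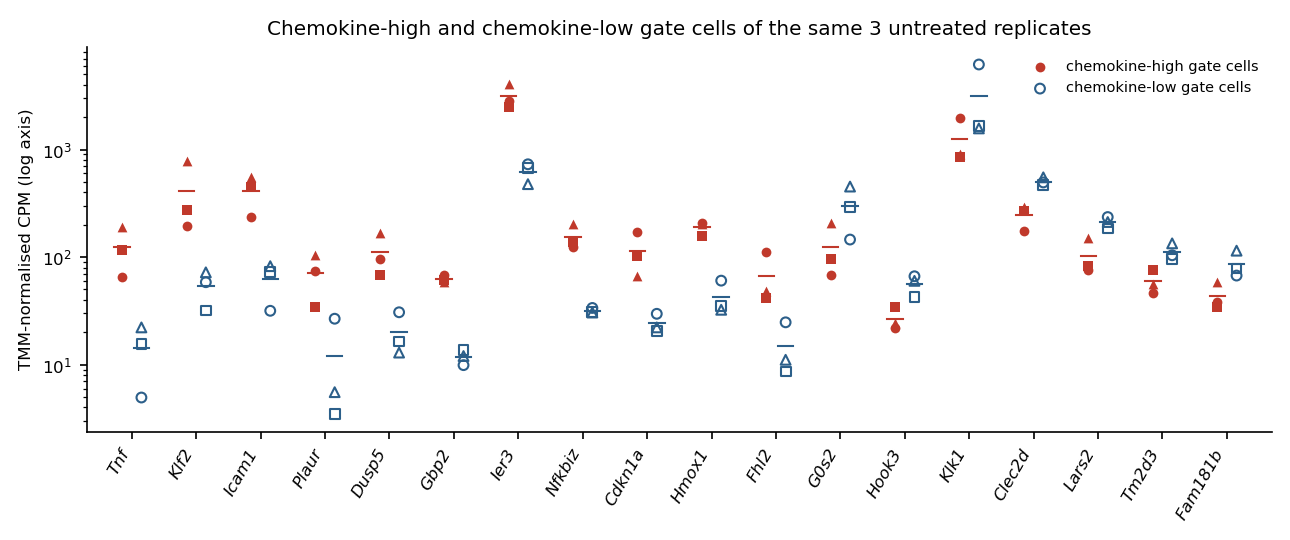
TMM-normalised CPM (y, log axis) of 18 named genes in chemokine-high (filled) and chemokine-low (open) gate cells of untreated replicates 1 (circles), 2 (squares) and 3 (triangles), with lines at the means. All filled points of the first 11 genes lie above the open ones; those of G0s2 and Klk1 overlap.

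Because of the difference in depth, the split was repeated on thinned cells. When each cell was thinned to 3000 UMIs before summing, 144 of 2684 genes were higher and 23 lower. When the 5-UMI threshold was applied after thinning, 132 of 6003 genes were higher and 21 lower. With stricter hashtag shares, 30 genes were higher and 4 lower. The named higher genes kept their direction in both thinned repeats where tested, and only Hmox1 missed the threshold, with the split made after thinning. The share of chemokine-high cells among thinned gate cells was 7.52, 6.78 and 7.33% in the 3 replicates, and 0.743, 0.495 and 0.813% among the other cells. It was 2 of 566 thinned ionocyte gate cells, 0 of 216 thinned granular cells and 0 of 155 thinned acinar cells, where counts of 0 allow shares of up to 1.39% and 1.94%. Saliva genes held a median of 81.9% of acinar UMIs, against 2.04% in gate cells, so the thinned acinar share is not comparable. Before thinning, hashed or not, 49 of 1026 acinar, 4 of 273 granular and 17 of 778 ionocyte gate cells held 5 such UMIs, against 89 of 548 members. Among the immune markers Ptprc, Lyz2, Itgam, S100a8, S100a9, Il1b and Cd79a were at 0 in all 89 chemokine-high cells. A UMI of the remaining ones, Cd68, Cd3e and C1qa, was seen in 5 of the 89 cells. Without TMM scaling, the immune markers summed to 5.35, 0 and 7.76 CPM in assigned chemokine-high cells, against 1.79 to 1.97 CPM in other cells.

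The gate was applied unchanged to the other libraries. In the irradiated library it took 89 of 2629 filtered cells, or 3.39%, in the basal sort 82 of 4418, or 1.86%, and in the untreated whole epithelium 13.4%. Among hashed cells of a replicate the shares were 1.93, 3.73 and 1.47% in irradiated glands and 1.55, 3.94 and 1.32% in the basal sort, against 19.2, 16.3 and 23.0% in the untreated whole epithelium. The means were 2.38% ± 1.19 in irradiated glands and 19.5% ± 3.36 in untreated glands (SD, n = 3 each), without overlap. The exact two-sided permutation p of 0.1 is the smallest that 3 against 3 allows, for irradiated and for basal-sort replicates alike. Shares among hashed cells depend on how often other cells were hashed, and only 157 of 1026 acinar cells were assigned in the untreated library. The basal sort selected on Cd49f, the product of Itga6, and the part of that selection in the low share was not tested.

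Cells with at least 5 UMIs of Cxcl1, Cxcl2 and Lcn2 together made up 57.1, 81.6 and 100% of assigned gate cells in irradiated replicates (4 of 7, 40 of 49 and 7 of 7 cells), against 19.6, 11.1 and 19.9% in untreated replicates. After thinning the shares were 16.7, 46.9 and 71.4% in irradiated and 7.52, 6.78 and 7.33% in untreated replicates (exact two-sided permutation p = 0.1 in both cases, the smallest possible). Lcn2 carried part of this count. With at least 5 UMIs of Cxcl1 and Cxcl2 alone, a threshold chosen after seeing the data, the shares were 14.3, 69.4 and 57.1% in irradiated replicates (1 of 7, 34 of 49 and 4 of 7 cells), against 18.8, 10.3 and 19.2% in untreated replicates, and the ranges overlapped (exact two-sided permutation p = 0.3). After thinning they were 0, 36.7 and 57.1% in irradiated and 7.52, 5.93 and 6% in untreated replicates (exact permutation p = 0.4). Irradiated replicate 1 lay within the untreated range before thinning and had 0 of 6 such cells after it. In the basal sort 2 of 67 assigned gate cells held 5 or more UMIs of the 3 genes. The thinned share by all 3 genes in the other cells was 6.15, 4.45 and 3.46% in irradiated replicates, against 0.743, 0.495 and 0.813% in untreated ones, and 5.42, 5.94 and 5.41% in the basal sort.

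**Figure D4:**
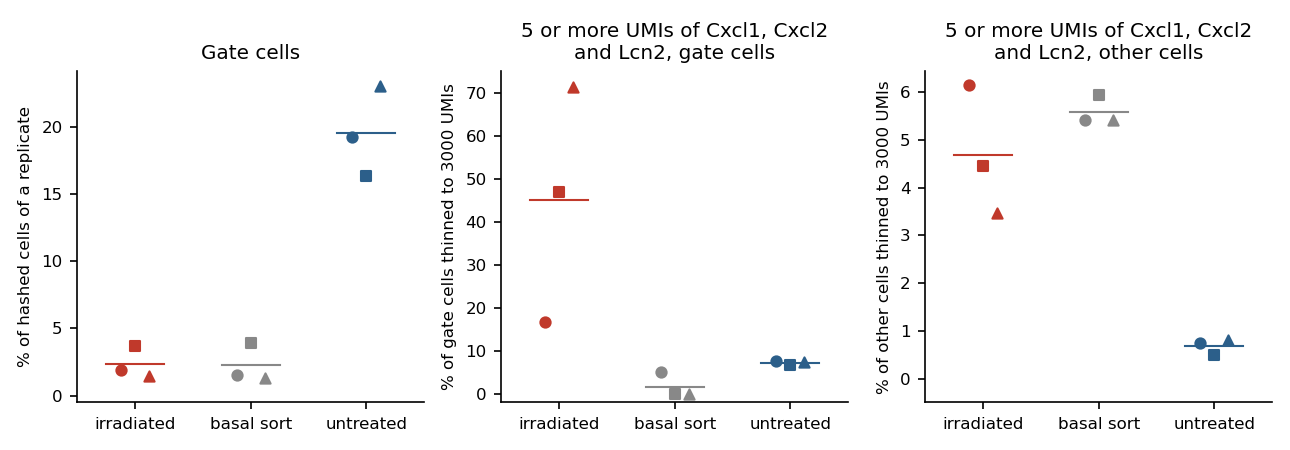
Shares per replicate (1 circle, 2 square, 3 triangle; lines are means): gate cells as a percentage of hashed cells (left), cells with at least 5 UMIs of Cxcl1, Cxcl2 and Lcn2 together among thinned gate cells (middle) and among thinned other cells (right), for the irradiated, basal-sort and untreated libraries. Gate cells make up under 4% in each irradiated and basal-sort replicate and over 16% in each untreated replicate.

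The genes named for the untreated library kept their direction elsewhere in most cases, as levels without a test. Of the 15 higher genes 13 were higher in gate cells than in other cells of every replicate, both in the irradiated library and in the basal sort. Dcpp3 and Cxcl2 were the exceptions in both. Slc9a3 had 87.7, 22.5 and 38.2 CPM in irradiated gate cells and 0.266, 0.665 and 0.457 CPM in irradiated other cells, and 211, 166 and 165 CPM in basal-sort gate cells and 0.531, 6.11 and 1.21 CPM in basal-sort other cells, all without TMM scaling. Car2, also without TMM scaling, had 721, 854 and 1361 CPM in irradiated gate cells and 156, 148 and 127 CPM in irradiated other cells. Cxcl2, again without TMM scaling, stood at 28.1, 5.17 and 0 CPM in basal-sort gate cells and 61.6, 35.3 and 83.9 CPM in basal-sort other cells. It was higher in the other cells of every replicate.

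Irradiated gate cells differed from untreated ones by higher p53 target, interferon and NF-kB genes. Of 19 tested genes of fluid secretion and transport 5 were lower, among them Fxyd2 and Ano1, 1 was higher, the potassium channel Kcnn4, and 13 did not pass. Kcnn4 had 130, 159 and 20.9 CPM in irradiated and 16.1, 31.7 and 37.2 CPM in untreated gate cells, so the ranges overlapped. It was seen in 17 of 63 irradiated cells, and 1 cell held 32.9% of its irradiated UMIs. The comparison rests on 7, 49 and 7 irradiated and 138, 126 and 156 untreated cells, so replicates 1 and 3 of the irradiated library are small. Of 7653 genes tested, 819 (10.7%) were higher and 436 (5.7%) lower in irradiated gate cells. Without irradiated replicate 2, 157 were higher and 56 lower. Leaving out untreated replicate 2 gave 521 higher and 235 lower, leaving out untreated replicate 3 gave 464 and 174, and leaving out irradiated replicate 3 gave 257 lower. Depth, mitochondrial share and the median saliva share of a cell moved with treatment. Irradiated gate cells had a median of 16465 UMIs, 2.09% mitochondrial UMIs and 0.0370% saliva gene UMIs, against 6882 UMIs, 6.49% and 2.04% in untreated gate cells. Summed over cells the saliva genes did not move one way, with 25448, 10338 and 261 CPM in irradiated and 23679, 45777 and 29763 CPM in untreated gate cells, without TMM scaling. Pip alone had 19958, 1298 and 6.96 CPM in irradiated and 951, 2639.9 and 1362 CPM in untreated gate cells. Without TMM scaling, the 14 acinar markers summed to 83450, 41604 and 223 CPM in irradiated gate cells, against 21369, 42893 and 71880 CPM in untreated gate cells. In untreated replicate 3, 1 cell alone carried 63777 UMIs of the markers Dcpp1, Dcpp2 and Dcpp3, of 1461708 UMIs in all its gate cells. Over all gate cells of a library, the marker with the most UMIs was Bpifa2 in the irradiated and Dcpp3 in the untreated one. The part of these differences in the results was not tested.

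Of 19 tested p53 targets 16 were higher and none lower, with a median log2 fold change of 2.44, beside -0.037 over all genes tested. Cdkn1a had 2165, 2087 and 2339.7 CPM in irradiated gate cells, against 65.0, 28.7 and 32.0 CPM in untreated gate cells (log2 fold change 5.71 ± 0.32, adjusted p = 2.5e-07). It was seen in 59 of 63 irradiated cells. Phlda3, a p53-induced inhibitor of Akt, had 177, 214 and 292 CPM in irradiated and 23.7, 19.9 and 8.49 CPM in untreated gate cells (log2 fold change 3.71 ± 0.31). Psrc1, Gdf15 and Mdm2 were also higher, with Gdf15, a stress cytokine, at 307, 512 and 76.6 CPM in irradiated and 19.6, 15.5 and 41.8 CPM in untreated gate cells. The 3 irradiated values of Cdkn1a and Phlda3 lay close together, those of Gdf15 did not.

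Of 22 tested interferon and class I presentation genes 13 were higher and none lower. Isg15, a ubiquitin-like modifier induced by interferon, had 846, 851 and 1302 CPM in irradiated and 210.3, 193 and 242 CPM in untreated gate cells (log2 fold change 2.21 ± 0.23). Rsad2, the antiviral protein viperin, had 9.29, 223 and 62.7 CPM in irradiated and 0.699, 1.47 and 4.57 CPM in untreated gate cells (log2 fold change 5.91 ± 0.64, 3.98 without irradiated replicate 2 and 6.78 without untreated replicate 3), and 1 cell held 64.9% of its irradiated UMIs. Ifit3b had 27.9, 250.5 and 292 CPM in irradiated and 6.29, 14.0 and 7.18 CPM in untreated gate cells (log2 fold change 4.53 ± 0.46), with 63.7% of irradiated UMIs in 1 cell and reads that may be shared with its close copy Ifit3. Apol9a, an apolipoprotein L family member, had 9.29, 107 and 97.5 CPM in irradiated and 1.40, 3.68 and 1.31 CPM in untreated gate cells (log2 fold change 5.35 ± 0.50, and 4.69 without irradiated replicate 2).

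Of 25 tested NF-kB and cytokine genes 17 were higher and 2, Socs3 and Cebpd, lower. Lcn2 had 659.7, 1035 and 815 CPM in irradiated and 14.7, 16.2 and 29.4 CPM in untreated gate cells (log2 fold change 5.38 ± 0.31, adjusted p = 2.5e-07). Cxcl2 was uneven, with 0, 1824 and 1629 CPM in irradiated and 85.9, 28.7 and 89.4 CPM in untreated gate cells (log2 fold change 4.11 ± 0.85, adjusted p = 0.0048), and the ranges overlapped. Cxcl1, with 102, 2004 and 1595 CPM in irradiated and 443, 299 and 557 CPM in untreated gate cells, did not pass (adjusted p = 0.087). Lif, a cytokine of the interleukin 6 family, had 27.9, 285 and 55.7 CPM in irradiated and 2.79, 0.737 and 7.83 CPM in untreated gate cells (log2 fold change 5.45 ± 0.63, 3.40 without irradiated replicate 2 and 6.37 without untreated replicate 3). Slpi, a secreted antiprotease, had 158, 31.6 and 48.7 CPM in irradiated and 2.79, 0.737 and 1.96 CPM in untreated gate cells (log2 fold change 4.72 ± 0.67, and 5.58 without irradiated replicate 2), and Esp8 averaged 106 ± 31.9 CPM in irradiated and 2.80 ± 3.04 CPM in untreated gate cells (log2 fold change 4.93 ± 0.48, and 6.21 without untreated replicate 1). Of 15 tested keratin, claudin and junction genes 10 were higher and 1 lower, with Cldn4, a tight junction claudin, at 5185, 11069.5 and 14769.5 CPM in irradiated and 2084, 998 and 1392 CPM in untreated gate cells.

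The gate's own genes are a description here too. Kit had 37.2, 66.6 and 48.7 CPM in irradiated and 142, 116 and 133 CPM in untreated gate cells, and Esp4 780.5, 176 and 348 CPM in irradiated and 878, 1382 and 1588 CPM in untreated gate cells, without overlap. Wfdc18 overlapped, at 18759.5, 41546 and 38578 CPM in irradiated and 33332, 39919 and 36165 CPM in untreated gate cells. Smgc had 1 UMI in irradiated gate cells and 4249.8, 18234 and 9056 CPM in untreated gate cells. Bpifa2, a parotid-type secretory protein, reached 58053, 29613 and 0 CPM in irradiated gate cells, against 0.699, 0 and 1999 CPM in untreated ones, in 11 of 63 irradiated cells, with 1 cell holding 44.0% of its UMIs, and did not pass (adjusted p = 0.1).

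Among the lower genes, Esp18 had 27.9, 32.7 and 90.5 CPM in irradiated and 212, 1062 and 879 CPM in untreated gate cells (log2 fold change -4.00 ± 0.58, adjusted p = 5.0e-04). Fxyd2 had 46.5, 95.9 and 20.9 CPM in irradiated and 944, 685 and 341 CPM in untreated gate cells (log2 fold change -3.27 ± 0.43, and -4.38 without irradiated replicate 2), and the saliva protein Scgb2b26 55.7, 46.3 and 0 CPM in irradiated and 386, 472 and 391 CPM in untreated gate cells. Both transcripts are far higher in other cells of the untreated gland, at 6039 ± 422 and 14204 ± 1076 CPM in the scaling of the comparison with other cells. Hspa1a, an inducible heat shock protein, had 186, 186 and 34.8 CPM in irradiated and 842, 1096 and 1592 CPM in untreated gate cells (log2 fold change -3.04 ± 0.40), with its near-identical copy Hspa1b also lower. Of 23 tested duct and secretory transcription factors 4 were lower (Ascl3, Tfap2b, Tfcp2l1 and Foxc1) and 3 higher (Klf5, Elf3 and Foxa1). Tfcp2l1, a duct transcription factor, had 74.3, 66.6 and 27.9 CPM in irradiated and 278, 269 and 291 CPM in untreated gate cells (log2 fold change -2.23 ± 0.27). Of 10 tested Wnt pathway genes 2 were lower, Nkd2 and Wnt4, and none higher. Of 8 tested secreted antimicrobial and saliva-type proteins 2 were lower, Esp18 and Wfdc12, and 2 higher, Slpi and the chaperone clusterin (Clu). Ano1 was lower (log2 fold change -0.81 ± 0.23), at 65.0, 94.8 and 62.7 CPM in irradiated and 138, 156 and 137 CPM in untreated gate cells. Pllp, Asgr1, Hsf2bp and Fam13a completed the named lower genes, on 5 to 10 UMIs in irradiated cells, and none of the 4 passed without irradiated replicate 2 (adjusted p = 0.071 to 0.15). None of 23 oxidative phosphorylation genes passed.

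**Figure D5:**
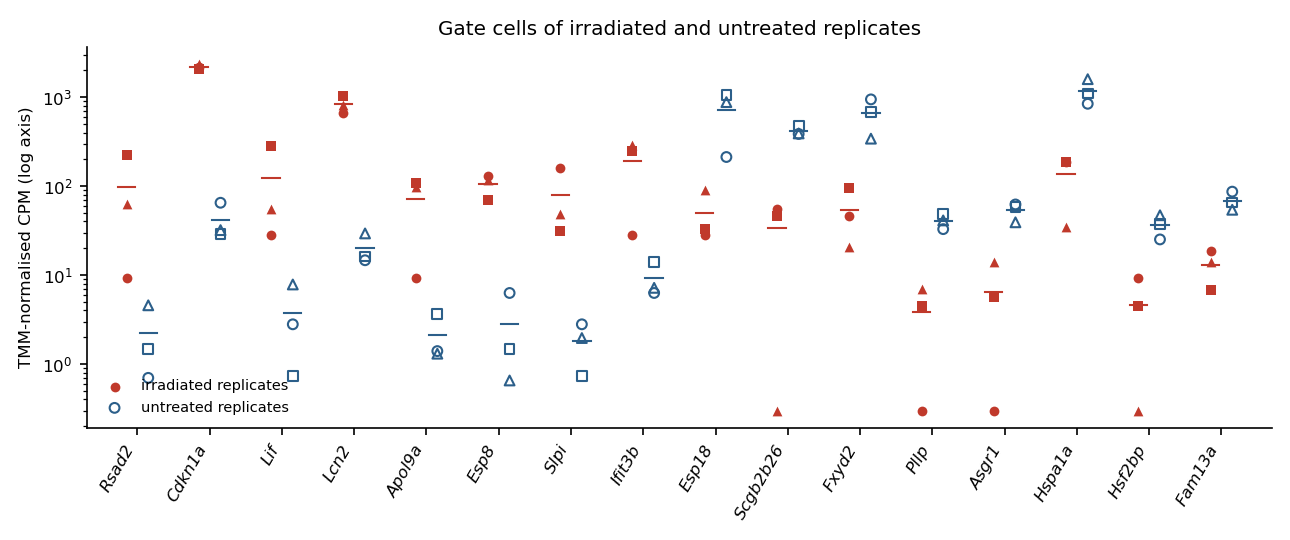
TMM-normalised CPM (y, log axis) of the named genes in gate cells of irradiated (filled) and untreated (open) replicates 1 (circles), 2 (squares) and 3 (triangles), with lines at the means; values under 0.3 are drawn at 0.3. Irradiated replicates 1 and 3 hold 7 cells each; Cdkn1a lies between 2087 and 2339.7 CPM in the irradiated and between 28.7 and 65.0 CPM in the untreated replicates.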

How the data were processed

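Three-prime RNA libraries of sorted submandibular epithelium were counted with Cell Ranger 6.1.2 on mm10, per the submitters' processing notes; filters behind the matrices are not given in the sources used here. The authors deposited unnormalised counts of UMIs, by barcode, for 32285 genes and the hashtags. Members and gene lists were chosen with earlier results of these data known.

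Replicates came from the hashtag counts with HTODemux (Seurat 5.3.0, quantile 0.99), and only barcodes called singlets were tested. Whether a replicate is 1 animal is not stated, so p-values measure the spread between hashed replicates. Hashtag doublets and barcodes without a call entered descriptions only, and Scrublet (scanpy 1.11.5) was an alternative. Counts were summed per replicate and class and tested with edgeR 4.0.16 (its quasi-likelihood test after filterByExpr and TMM scaling; p adjusted by Benjamini-Hochberg, threshold 0.05). Within the untreated library the replicate was a block, since both classes of a replicate come from the same hashed cells; between libraries replicates share only a number, so no block was used. CPM are TMM-scaled within each comparison unless stated, so the CPM of the same cells differ between comparisons. Levels of different genes were not compared.

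Named genes passed the threshold, moved the same way in all 3 replicates (between libraries: without overlap) and averaged at least 20 CPM. Names starting Gm, mt-, Rpl or Rps or holding Rik were left out. The genes with the greatest changes were taken: 15 higher and 10 lower against other cells, 12 and 8 in the split, 8 and 8 under irradiation, and 6 and 6 against each class. A few genes that met this rule are not reported here. Up to 4 members per list followed the same threshold; other genes in the text were chosen after their values were seen. In simulated counts with 50 genes per fold, 62% of genes raised 2-fold were recovered against other cells (10773 genes), 54% in the split (6109 genes) and 46% under irradiation (7653 genes), where 10% of genes lowered to 0.5-fold were recovered. Alternatives were DESeq2 1.42.0, other size factors, no count filter, a stricter cell filter (at least 1000 genes, at most 10% mitochondrial) or gate (Wfdc18 2%, markers 5 UMIs), hashtag shares of at least 70%, thinning, the other block choice, each replicate left out, and, chosen after seeing the data, the 2 Dcpp-rich members left out and the irradiated shares counted without Lcn2.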

Additional observations from a re-analysis of the deposited data

Results flagged for a closer look

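In the untreated whole epithelium 41 barcodes met the gate's expression conditions but lay outside the cell filter, and no comparison used them. Of these, 39 had over 20% mitochondrial UMIs and 6 had under 500 genes. Their median mitochondrial share was 27.9%, against 6.49% in the 548 members. They stand out because they carry the same markers in barcodes left out of every main result above.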

How the results depend on the processing

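No result changed direction. Against other cells, DESeq2 called 924 genes higher and 1225 lower, stricter hashtag shares 906 and 1030, and thinning 933 and 1069. Over both directions, DESeq2, hashtag shares and thinning gave 1782, 1471 and 565 genes against acinar cells, 1940, 930 and 1233 against granular cells, and 1898, 1376 and 1900 against ionocyte gate cells, where the strict cell filter gave 2063. In the chemokine split, genes higher numbered 159 with DESeq2, 30 with hashtag shares, 144 with thinning and 132 with the split made after thinning. Genes lower numbered 69 without a count filter, 8 with DESeq2, 4 with hashtag shares and 29 without Scrublet calls. Under irradiation, genes higher numbered 542 with DESeq2 and 363 with thinning, and genes lower 684 without a count filter, 195 with DESeq2 and 174 with thinning. The hashtag number as a replicate block, a pairing the labels do not give, left 341 higher and 109 lower. Without the replicate block, 1738 genes were higher and 1887 lower against other cells, and 241 and 17 in the split. Leaving out each replicate gave 133 to 211 higher and 3 to 16 lower genes in the split, and 157 to 1156 higher and 56 to 637 lower under irradiation. Among named genes, 5 of 372 repeats lost the call against other cells, all for Dcpp3, none did against the 3 classes, 38 of 289 did in the split and 4 of 240 under irradiation. Fewer cells and counts remain under hashtag shares and thinning; otherwise the cause was not tested. Shallow gate cells and 7-cell replicates limit what could be called.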
